A study of Fraxinus excelsior with 182 samples.

Results

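4 gene models annotated for auxin response and membrane transport were followed through the leaves of European ash (Fraxinus excelsior), as 4 of the 42665 gene models measured. They were Fe_g28062 and Fe_g28064, which carry the Mem_trans domain of membrane transport proteins, Fe_g22928.1, an auxin transporter-like protein whose closest named relative is LAX3, and Fe_g31540, an auxin response factor whose closest named relative is ARF17. The names rest on the annotation that the study gave these genes, which was picked up by identifier. The study had listed all 4 among the genes whose leaf level was associated with ash dieback damage in these same trees, and with the same direction. That choice favours positive covariation among them, so a positive correlation between members is no independent evidence of a shared role.

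Auxin is a plant growth hormone that is moved from cell to cell by carriers in the plasma membrane. Proteins of the AUX1/LAX family, with an amino acid transporter (Aa_trans) domain, bring auxin into the cell, and in Arabidopsis LAX3 is known for its part in the emergence of lateral roots. Mem_trans is the domain shared by the PIN exporters, which send auxin out of the cell, and by the related PIN-LIKES proteins of the endoplasmic reticulum. Auxin response factors bind the promoters of auxin-responsive genes, and TOPLESS-type co-repressors, recruited through Aux/IAA proteins, keep such promoters silent when auxin is low. In Arabidopsis ARF17 belongs to the factors that repress their targets and is itself a target of a microRNA.

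The samples were leaves of 182 Danish accessions, called Ash1 to Ash218 with gaps, each a different tree with 1 library of 100 bp Illumina HiSeq reads made for an earlier study. The trees form a single group with no treatment, genotype class or control, so the question here was how far the 4 genes differ among trees and which genes vary with them. Values are TPM, a transcript abundance, which is scaled for coding length and can be compared between genes of a tree. Their depth is unknown, and no counting interval can be given. In a whole leaf, fewer cells of a type and less RNA per cell cannot be told apart. The tissue label could not be checked against leaf markers, since the data give identifiers and the annotations at hand cover genes chosen by the study.

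The trees had between 31244 and 34889 genes above 0 TPM, and between 4.25% and 19.99% of a tree’s TPM went to its top 10 genes. Principal component 1 of the 31003 genes that reached 1 TPM in at least 19 trees held 30.46% of their variance. No 2 libraries held identical values. Relatedness among the trees was not modelled.

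All 4 genes were above 0 TPM in every tree, and all 4 passed the filter on low values. Fe_g28064 had the highest level, with 6.68 TPM in the lowest tree, a median of 14.9 and 36.99 in the highest, and a mean of 15.7 ± 5.58 TPM (SD, n = 182). Its partner by domain, Fe_g28062, ran from 3.49 TPM through a median of 10.96 to 27.7, with a mean of 11.5 ± 4.37 TPM (SD, n = 182). Both Mem_trans genes were therefore at 1 TPM or more in all 182 trees. The LAX3-like influx carrier gene Fe_g22928.1 ran from 0.577 TPM through a median of 4.26 to 10.25, with a mean of 4.41 ± 1.79 TPM (SD, n = 182), and was under 1 TPM in 1 tree. The ARF17-like gene Fe_g31540 was the lowest, with 0.361 TPM in the lowest tree, a median of 1.33, 3.10 in the highest and a mean of 1.39 ± 0.579 TPM (SD, n = 182), and reached 1 TPM in 74.2% of the trees. The factor gene therefore sat near the floor of the filter, and the coefficient of variation was 35.5% for Fe_g28064, 37.9% for Fe_g28062, 40.6% for Fe_g22928.1 and 41.6% for Fe_g31540, against a median of 38.02% over the 31003 genes tested. None of the 4 split the trees into separate high and low clusters.

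The order of the levels held within trees. Fe_g28064 was above Fe_g28062 in 180 of 182 trees, by 4.15 ± 2.32 TPM (SD). Fe_g28062 was above Fe_g22928.1 in all but 3 trees, by 7.12 ± 4.29 TPM. Fe_g22928.1 was above Fe_g31540 in all but 6 trees, by 3.02 ± 1.82 TPM. Each of these 3 neighbouring steps gave an adjusted p of 1e-05 in a two-sided sign-flip permutation test, the smallest that 100000 resamples can give, so all 3 neighbouring steps differed from 0 by this test. The order tested was that of the means in these same trees. For the step from Fe_g28064 to Fe_g28062, the test does not cover how reads were divided between the 2 genes, which is taken up below.

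**Figure D1:**
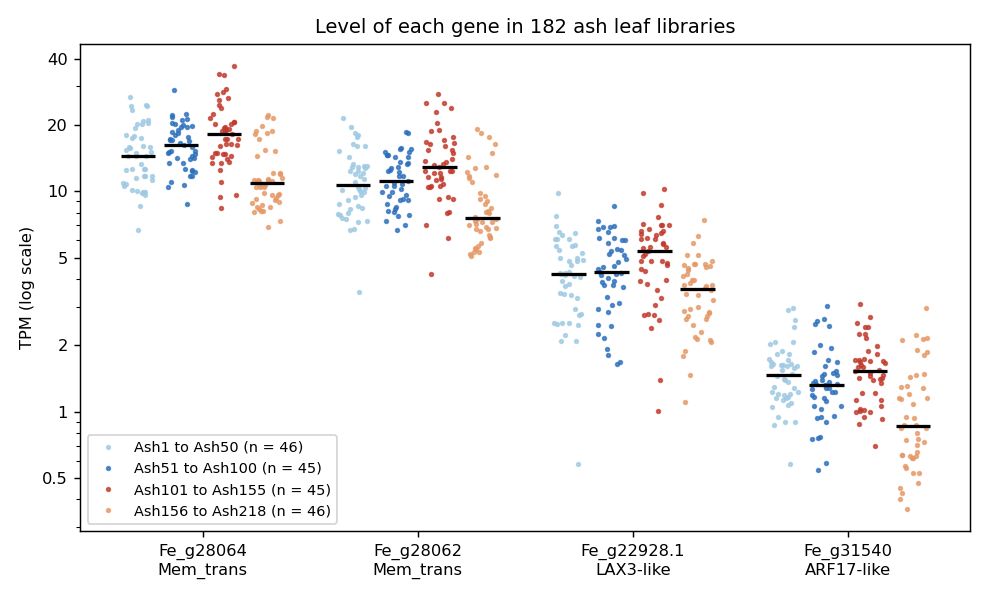
TPM of each gene on a log axis, with 1 point per tree, coloured by 4 bands of the Ash numbers in the trees' labels, and a black bar at the median of the band. The levels run from 36.99 TPM for Fe_g28064 down to 0.361 TPM for Fe_g31540, and for all 4 genes the median bar is at its highest in Ash101 to Ash155 and at its lowest in Ash156 to Ash218.

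The 4 genes had their highest and their lowest mean in the same bands of the Ash numbers, a pattern noticed after the values were seen and given with no test. What an Ash number stands for is not given in the sources used here. Fe_g28062 averaged 11.5 ± 3.86, 11.6 ± 3.05, 14.03 ± 5.22 and 9.09 ± 3.73 TPM (SD, n = 46, 45, 45 and 46) in Ash1 to Ash50, Ash51 to Ash100, Ash101 to Ash155 and Ash156 to Ash218. In the same order of bands, Fe_g28064 averaged 15.2 ± 4.93, 16.4 ± 4.01, 19.1 ± 6.54 and 12.1 ± 4.21 TPM. Both Mem_trans genes were thus at their highest mean in Ash101 to Ash155 and at their lowest in Ash156 to Ash218, with ranges that overlapped between all bands. Fe_g22928.1 averaged 4.37 ± 1.74, 4.48 ± 1.72, 5.24 ± 1.99 and 3.58 ± 1.31 TPM over the bands. Fe_g31540 averaged 1.52 ± 0.507, 1.41 ± 0.548, 1.58 ± 0.532 and 1.06 ± 0.600 TPM. The influx carrier and the factor had the same high and low bands as the Mem_trans genes.

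The high and the low band both lie above the median Ash number of 100.5, and the means on either side of it were close. Fe_g28062 averaged 11.5 ± 5.14 TPM in the 91 trees above the median Ash number and 11.5 ± 3.46 TPM in the 91 trees up to it (SD). Fe_g31540 averaged 1.32 ± 0.620 TPM in the trees above and 1.47 ± 0.528 TPM in the trees up to the median. Adjusted p-values of a two-sided permutation test with 100000 resamples ran from 0.325 for Fe_g31540 to 0.998 for the other 3 genes, so no difference in mean level was found between these sets.

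The trees at the ends of the ranges differed from gene to gene. Ash120 had the highest Fe_g28062 (27.7 TPM) and was 2nd of 182 for Fe_g22928.1 (9.83 TPM), but stood below the median for Fe_g31540 (1.22 TPM). Ash155 had the highest Fe_g28064 (36.99 TPM), was 4th for Fe_g28062 (23.9 TPM) and 13th for Fe_g31540 (2.43 TPM). Ash30 was lowest for both Mem_trans genes, with 3.49 and 6.68 TPM, although it stood 14th for Fe_g31540 (2.43 TPM). Ash111, 2nd for Fe_g28062 and 3rd for Fe_g28064, was 6th for Fe_g31540 (2.70 TPM). Some extreme trees of the pair were thus near the same end for the factor, and Ash120 and Ash30 were not. The LAX3-like Fe_g22928.1 was highest in Ash101 (10.25 TPM) and lowest in Ash24 (0.577 TPM). Ash24 was the single tree under 1 TPM, and it ranked 23rd for Fe_g28062 (16.5 TPM). Fe_g31540 was highest in Ash114 (3.10 TPM) and lowest in Ash211 (0.361 TPM). Of the 182 trees, 6 were at or above the upper quartile of all 4 genes, namely Ash40, Ash104, Ash115, Ash123, Ash140 and Ash155. All of these but Ash40 lie in Ash101 to Ash155, the band with the highest means. The 9 trees at or below the lower quartile of all 4 were Ash18, Ash174, Ash177, Ash195, Ash196, Ash197, Ash200, Ash211 and Ash218. All of these but Ash18 lie in Ash156 to Ash218, the band with the lowest means. A further 28 trees were in the upper quartile of 1 gene and the lower quartile of another.

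The Mem_trans genes ran nearly in parallel. They had been singled out for that pattern, so the values are a description. Spearman's rho between their TPM was 0.913 and Pearson's r 0.919 over the 182 trees. The ratio of Fe_g28062 to Fe_g28064 had a median of 0.744, with a lowest value of 0.422 in Ash59 (9.15 against 21.7 TPM) and a highest of 1.06 in Ash39 (13.4 against 12.6 TPM). Fe_g28062 exceeded Fe_g28064 in 2 trees, Ash39 and Ash84 (12.7 against 12.3 TPM). The log2 ratio had an SD of 0.22, while log2 TPM had an SD of 0.54 for Fe_g28062 and 0.50 for Fe_g28064, so the ratio varied less than either gene did. Within the bands of the Ash numbers r was 0.940, 0.834, 0.904 and 0.927 from the lowest numbers to the highest.

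**Figure D2:**
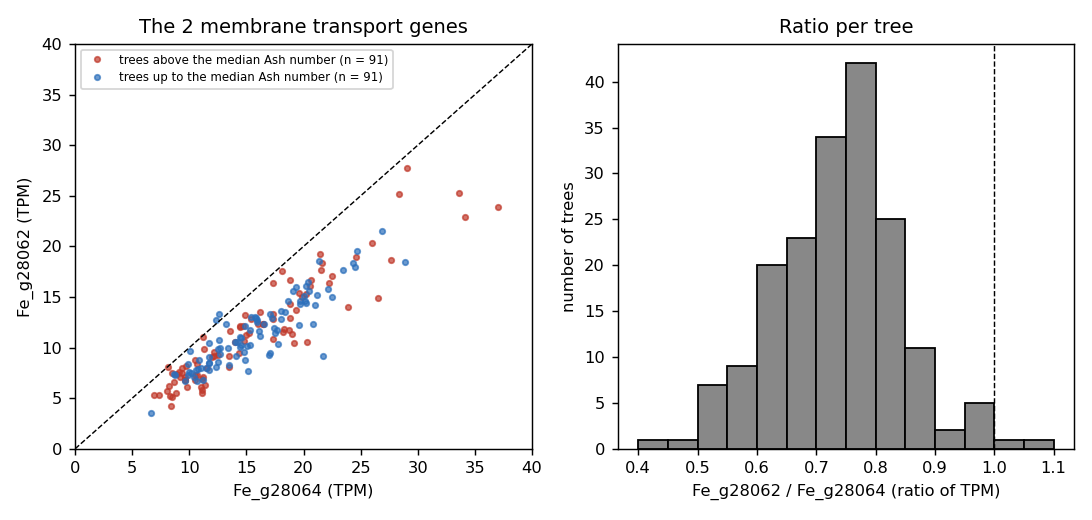
On the left, the TPM of Fe_g28062 against that of Fe_g28064, with 1 point per tree, coloured by whether its Ash number lies above the median or not, and a dashed line of equal values. On the right, the number of trees by the ratio of Fe_g28062 to Fe_g28064, which has a median of 0.744 and passes 1 in 2 trees.

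Whether this parallel course comes from the genes or from the division of reads between similar sequences was not tested. Both have the same closest annotated relative, and Salmon, the program that made the values, shares a read that matches several transcripts among them. The values of each member of the pair are uncertain to that extent, and their sum is less so. The identifier between them, Fe_g28063, does not share their course. It averaged 7.43 ± 1.77 TPM (SD, n = 182) and had an r of 0.198 with Fe_g28062 and 0.232 with Fe_g28064 on log2(TPM + 1), with limma adjusted p-values of 0.0175 and 0.00490, which scaling by the median of ratios took to 0.437 and 0.267. The identifiers around them are given as the annotation numbers them, and genome positions were not used here. Of the other identifiers within 3 of either gene, Fe_g28061.1, Fe_g28066 and Fe_g28067 had an r of 0.195, 0.299 and 0.260 with Fe_g28064, and Fe_g28060 an r of −0.270 with Fe_g28062. No neighbour by identifier came near the r within the pair.

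In a limma fit that held both members of the pair, no gene of 31001 was called for either member beside the other. At an unadjusted p under 0.05 there were 2788 genes (8.99%) for Fe_g28062 beside Fe_g28064, and 3062 (9.88%) for Fe_g28064 beside Fe_g28062. The lowest limma adjusted p was 0.250 and 0.0595. The genes whose r differed most were Fe_g12316 and Fe_g43264, higher with Fe_g28062, and Fe_g31162.1 and Fe_g9001, higher with Fe_g28064, and the differences of r lay between −0.131 and 0.121. No gene that follows 1 of the Mem_trans genes and not the other was found at this number of trees.

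The other 5 pairs of members were tested with two-sided permutation tests of 100000 resamples, adjusted over 10 tests (rho and r of each pair). The factor and the Mem_trans genes had the closest relations. For Fe_g28062 with Fe_g31540 rho was 0.447 and r was 0.393, and for Fe_g28064 with Fe_g31540 rho was 0.419 and r was 0.373, each with a permutation adjusted p of 2.5e-05. The LAX3-like gene was less close to the Mem_trans genes. With Fe_g28062 its rho was 0.245 and its r 0.250 (permutation adjusted p = 0.00127 and 0.000914), and with Fe_g28064 rho was 0.283 and r was 0.281 (0.000133 for both). Fe_g22928.1 and Fe_g31540, the genes annotated for auxin itself, were related by rho at 0.183 (permutation adjusted p = 0.0154) while r was 0.115 and missed the threshold (0.122). When the 2 trees with the most extreme values of the gene named first in a pair were left out, r was 0.391 for Fe_g28062 and Fe_g31540, 0.354 for Fe_g28064 and Fe_g31540, 0.202 for Fe_g28062 and Fe_g22928.1, 0.292 for Fe_g28064 and Fe_g22928.1, and 0.140 for Fe_g22928.1 and Fe_g31540.

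**Figure D3:**
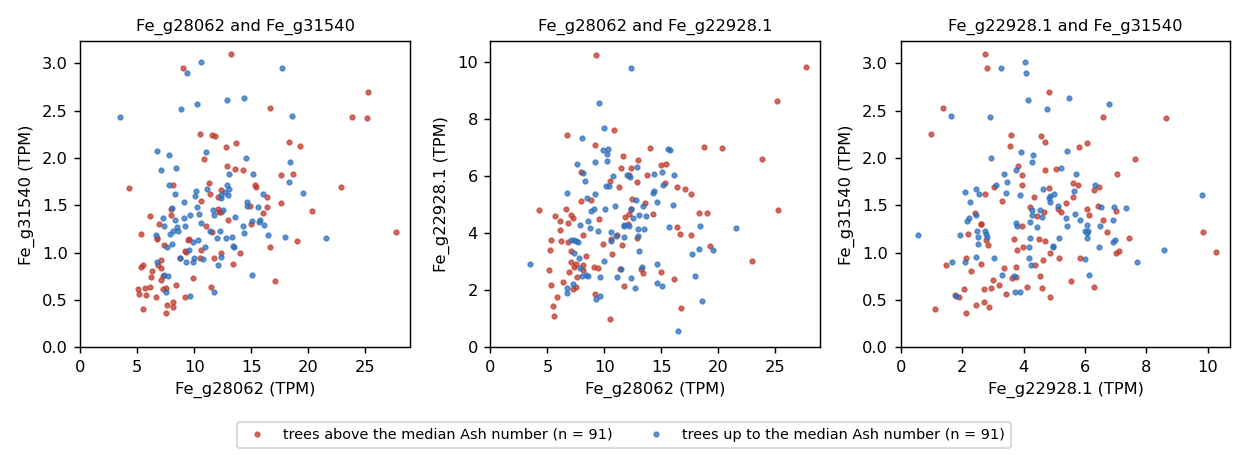
TPM of 3 pairs of genes, with 1 point per tree, coloured by whether the tree's Ash number lies above the median of 100.5 or not. In the left panel the trees above the median spread along a rising line (r 0.556), while the trees up to it show little slope (r 0.125), and in the right panel r is 0.209 above and −0.00471 up to the median.

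Each of these relations had a higher r over the trees above the median Ash number than over the trees up to it. The tests of these differences were chosen after the data were seen. They do not separate a relation within bands from level differences between the bands of a side. For Fe_g28062 and Fe_g31540, r was 0.556 in the 91 trees above the median and 0.125 in the 91 trees up to it, and the difference had a permutation adjusted p of 0.00900 (10000 resamples, adjusted over 10 tests). For Fe_g28064 and Fe_g31540, r was 0.533 in the trees above and 0.109 in the trees up to the median (permutation adjusted p of the difference 0.00567). For Fe_g28062 and Fe_g22928.1, r was 0.417 in the trees above and −0.0120 in the trees up to the median (0.0220). The same direction was found for Fe_g28064 and Fe_g22928.1, with 0.398 in the trees above and 0.105 in the trees up to the median, but that difference missed the threshold (0.0616). For Fe_g22928.1 and Fe_g31540, r was 0.209 in the trees above and −0.00471 in the trees up to the median (0.150). Fe_g28062 and Fe_g28064 had an r of 0.932 above and 0.892 up to the median.

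The trees above the median Ash number include both the band with the highest and the band with the lowest mean of each gene. Within single bands r of Fe_g28062 and Fe_g31540 was 0.0577, 0.214, 0.290 and 0.661 from the lowest numbers to the highest, and that of Fe_g28064 and Fe_g31540 was 0.0859, 0.176, 0.246 and 0.649. The relation of the factor with the Mem_trans genes was therefore at its closest within Ash156 to Ash218. For Fe_g22928.1 r within bands ran from −0.0564 to 0.283 with Fe_g28062, from 0.0669 to 0.223 with Fe_g28064 and from −0.193 to 0.323 with Fe_g31540. When the band was a term of the model, r was 0.312 for Fe_g28062 and Fe_g31540 and 0.282 for Fe_g28064 and Fe_g31540 (permutation adjusted p = 0.00035 and 0.000567). Those of Fe_g22928.1 were 0.137 with Fe_g28062 and 0.158 with Fe_g28064, against 0.250 and 0.281 without the term, and missed the threshold (0.0813 and 0.0517). The 5 leading principal components of the whole table were removed on log2(TPM + 1), not on TPM. After that none of the 5 pairs passed the test. For Fe_g28062 and Fe_g31540 r was 0.153 (permutation adjusted p = 0.196), against 0.425 on log2(TPM + 1) without the removal. The pair of Mem_trans genes kept an r of 0.885.

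**Figure D4:**
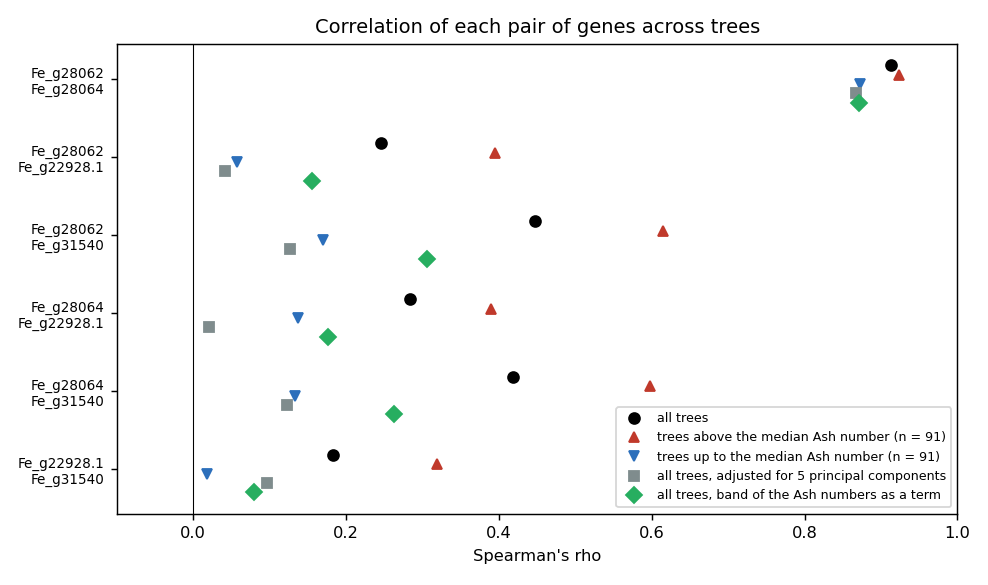
Spearman's rho of each pair of genes over all trees, over the trees above and up to the median Ash number, and over all trees after removal of 5 principal components or with the band of the Ash numbers as a term. The Mem_trans pair stays above 0.8 throughout, and the other 5 pairs have their highest value in the trees above the median Ash number.

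Genes that vary with each member were sought among the 31002 others that passed the filter, with limma on log2(TPM + 1). A gene is said to rise with a member where its slope on that member is positive at an adjusted p of 0.05 or less, and to fall where it is negative. A large part of the leaf transcriptome did so for each of the 4. With Fe_g28062, 10394 genes rose (33.5%) and 5672 fell (18.3%). With Fe_g28064, 10782 rose (34.8%) and 5438 fell (17.5%). With Fe_g31540, 11015 rose (35.5%) and 7043 fell (22.7%). Fe_g22928.1 differed in balance, with 10475 genes that rose (33.8%) and 825 that fell (2.66%). The r of a gene with the member reached 0.5 or more for 81 genes with Fe_g28062, 91 with Fe_g28064, 21 with Fe_g22928.1 and 448 with Fe_g31540, and reached −0.5 or less for 25 genes with Fe_g31540 and for none with the other 3. After scaling by the median of ratios, −0.5 or less was reached for 46, 50, 0 and 1141 genes with Fe_g28062, Fe_g28064, Fe_g22928.1 and Fe_g31540. With the band of the Ash numbers as a term, 0.5 or more was reached for 1, 7, 6 and 52 genes in the same order of members. Calls are therefore read against these backgrounds below.

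The counts depended on the trees and on the scale. In the trees above the median Ash number 11409 genes rose (36.8%) and 6241 fell (20.1%) with Fe_g28062, and 11684 rose (37.7%) and 5987 fell (19.3%) with Fe_g28064. In the trees up to the median a single gene (0.00323%) was called with each, namely the other member of the pair, at an r of 0.889, while 2316 and 2713 genes had an unadjusted limma p under 0.05. With Fe_g31540, 10823 genes rose (34.9%) and 7609 fell (24.5%) in the trees above, against 1370 (4.42%) and 384 (1.24%) in the trees up to the median. The LAX3-like gene stood apart. With Fe_g22928.1, 5821 genes rose (18.8%) and 346 fell (1.12%) in the trees above, against 4725 (15.2%) and 343 (1.11%) in the trees up to the median. Whether the counts differ between the sets of trees was not tested.

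With the band of the Ash numbers as a term, 8605 genes rose (27.8%) and 6236 fell (20.1%) with Fe_g28062, 9086 (29.3%) and 6284 (20.3%) with Fe_g28064, 8749 (28.2%) and 934 (3.01%) with Fe_g22928.1, and 9815 (31.7%) and 7670 (24.7%) with Fe_g31540. The counts of calls with level differences between the bands taken out were thus of the same order, while far fewer genes reached an r of 0.5. With 5 principal components as covariates, 472 genes rose (1.52%) and 518 fell (1.67%) with Fe_g28062, 541 (1.75%) and 693 (2.24%) with Fe_g28064, and 297 (0.958%) and 526 (1.7%) with Fe_g31540. No gene was called with Fe_g22928.1 in that limma fit, where 2512 genes had an unadjusted p under 0.05. After scaling by the median of ratios, 9691 genes rose (31.3%) and 8980 fell (29%) with Fe_g28062, 9846 (31.8%) and 8945 (28.9%) with Fe_g28064, 1081 (3.49%) and 998 (3.22%) with Fe_g22928.1, and 10472 (33.8%) and 9608 (31%) with Fe_g31540. The surplus of rising over falling genes thus shrank for all 4 members, through more falling genes for 3 of them and through fewer rising genes for Fe_g22928.1.

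Library measures moved with the members. The level of Fe_g28062, Fe_g28064 and Fe_g31540 had an r of 0.315, 0.312 and 0.367 with principal component 1, and that of Fe_g22928.1 an r of −0.122 (permutation adjusted p over 12 relations and both measures 0.00016, 0.00016, 0.00012 and 0.148). Leaving out each gene's 2 most extreme trees gave 0.306, 0.294, 0.334 and −0.0416, and rho was 0.260, 0.288, 0.307 and 0.00175. The share of TPM in the 10 most abundant genes had an r of 0.231, 0.211 and 0.324 with those 3 genes (permutation adjusted p = 0.00306, 0.00665 and 0.00016). Their rho with it was 0.219, 0.246 and 0.259. With Fe_g22928.1 r was −0.202 (permutation adjusted p = 0.0102), but rho was −0.0829 and missed the threshold (0.377). Without each gene's 2 most extreme trees r was 0.236, 0.199 and 0.310 for the 3 genes and −0.135 for Fe_g22928.1. The number of genes above 0 TPM was related to Fe_g22928.1 at an r of 0.318 and a rho of 0.267 (permutation adjusted p = 0.00012 and 0.00084), and r was at most 0.0653 with the others, which missed the threshold. For principal component 1 and the number of genes above 0 TPM, the 3 genes and the LAX3-like gene thus differed in which relation passed. In the trees above the median Ash number, r with principal component 1 was 0.493 for Fe_g28062, 0.484 for Fe_g28064 and 0.553 for Fe_g31540, against 0.101, 0.114 and 0.190 in the trees up to the median. The part of these measures in the co-expression was not tested beyond the fits with 5 principal components.

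The genes with a pattern most like each member carry no annotation in the sources used here, and are named with the Pearson's r on log2(TPM + 1) over 182 trees. Closest to Fe_g28062 after its partner were Fe_g35280 (5.68 ± 1.03 TPM, r 0.578) and Fe_g20549 (8.83 ± 2.70 TPM, r 0.566). Per SD of Fe_g28062 they rose by 0.13 ± 0.01 and 0.22 ± 0.02 (SE) on the log2 scale, and the partner Fe_g28064 by 0.43 ± 0.01. Closest to Fe_g28064 after Fe_g28062 were Fe_g26641 (194.4 ± 33.5 TPM, r 0.588) and Fe_g6368 (18.4 ± 3.54 TPM, r 0.577). The step down from the partner, at 0.918, to the next gene was thus wide for both. The lowest r with either member was with Fe_g3047 (190 ± 72.4 TPM, r −0.491 with Fe_g28062 and −0.494 with Fe_g28064), Fe_g22300 (314 ± 94.95 TPM, −0.488 and −0.493) and Fe_g42514 (131.3 ± 30.3 TPM, −0.465 and −0.489). All of these passed the limma test over all trees, with adjusted p-values from 5.44e-13 for Fe_g35280 to 4.80e-09 for Fe_g42514 with Fe_g28062. None but the partners passed in the trees up to the median Ash number, where r was 0.378 for Fe_g35280 (limma adjusted p = 0.312). The 4 companions kept their calls with 5 principal components, while Fe_g3047 (r −0.154 and −0.132), Fe_g22300 (−0.211 and −0.185) and Fe_g42514 (−0.174 and −0.167) lost theirs with both members, at limma adjusted p-values from 0.0884 to 0.341.

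Fe_g22928.1 had its highest r with Fe_g42198.1 (12.4 ± 6.75 TPM, r 0.568), Fe_g11783 (4.19 ± 2.77 TPM, r 0.555) and Fe_g22993 (4.48 ± 1.55 TPM, r 0.553). Unlike the companions of the pair, these passed in both sets of trees, but not with 5 principal components, where r was 0.262, 0.239 and 0.185 (limma adjusted p = 0.295, 0.337 and 0.463). Fe_g42198.1 had an r of 0.582 in the trees above and 0.563 in the trees up to the median Ash number. Fe_g22993 had an r of 0.523 in the trees above and 0.590 in the trees up to the median. The lowest r was with Fe_g10077 (113.7 ± 20.9 TPM, r −0.415), Fe_g43476 (−0.392) and Fe_g17976 (−0.391). Over all trees none of the 4 neighbours by identifier that passed the filter on low values was called with Fe_g22928.1, with an r from 0.0121 for Fe_g22926 to 0.158 for Fe_g22930 (limma adjusted p = 0.914 and 0.0801). Fe_g22930 was called with the band as a term (r 0.196, limma adjusted p = 0.0330), and Fe_g22927 in the trees above the median Ash number (r 0.327, limma adjusted p = 0.0128).

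Fe_g31540 had the closest companions apart from the Mem_trans pair. Fe_g9145 (4.40 ± 1.10 TPM) had an r of 0.635, Fe_g25128 (5.36 ± 1.55 TPM) of 0.627 and Fe_g30297 (17.9 ± 3.71 TPM) of 0.623, and each passed in both sets of trees. Fe_g30297 also passed with 5 principal components (r 0.283, limma adjusted p = 0.0177), while Fe_g9145 (r 0.198, 0.140) and Fe_g25128 (r 0.0826, 0.646) lost their calls. Fe_g9145 had an r of 0.731 in the trees above and 0.465 in the trees up to the median Ash number (limma adjusted p = 0.00368 in the trees up to the median). The lowest r was with Fe_g40974 (72.1 ± 20.2 TPM, r −0.571), Fe_g5943 (31.8 ± 7.03 TPM, r −0.570) and Fe_g13951 (733 ± 249 TPM, r −0.565). Each kept its call with 5 principal components (r −0.275, −0.363 and −0.381, limma adjusted p = 0.0204, 0.000895 and 0.000420). Each also passed in the trees up to the median Ash number (limma adjusted p = 0.00224, 0.00215 and 0.0127). Among neighbours by identifier, Fe_g31543 fell with Fe_g31540 (r −0.416, limma adjusted p = 5.96e-08) and Fe_g31542 rose (r 0.332, 2.11e-05). Fe_g31538, at a mean of 0.851 TPM, also rose (r 0.290, limma adjusted p = 0.000281). In the order Fe_g31543, Fe_g31542 and Fe_g31538, r in the trees up to the median Ash number was −0.169, −0.0227 and 0.169. These calls were lost there (limma adjusted p = 0.297, 0.914 and 0.309). They were also lost with 5 principal components (r −0.0980, 0.0993 and −0.0447, limma adjusted p = 0.552, 0.546 and 0.827).

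Genes that act beside auxin carriers and auxin response factors were taken from 6 lists of 37 genes. All of them came from the study's damage-associated genes, as did the 4 members. That choice favours counts above the share of all genes. Neither the direction of a list nor its count is therefore independent evidence of a link with a member. The study's other damage-associated genes were not used as a background. Over all trees each count stands against the 33.5%, 34.8%, 33.8% and 35.5% of all genes that rose with Fe_g28062, Fe_g28064, Fe_g22928.1 and Fe_g31540, and a median r over all genes of 0.0616, 0.0699, 0.118 and 0.0609. TOPLESS-related co-repressors act at the promoters that auxin response factors bind. Both listed genes, Fe_g6059 and Fe_g12567.1, rose with all 4 members. With Fe_g31540 r was 0.358 for Fe_g6059 and 0.442 for Fe_g12567.1 (limma adjusted p = 4.69e-06 and 1.13e-08), and with Fe_g28062 it was 0.427 and 0.412. With Fe_g22928.1 r was 0.176 and 0.188, close to the threshold (limma adjusted p = 0.0494 and 0.0359). The calls with Fe_g22928.1 were lost after scaling and with the band as a term, while those with the other 3 genes held under both. In the trees above the median Ash number, Fe_g6059 had an r of 0.612 with Fe_g31540, against 0.113 in the trees up to it. Neither TOPLESS-related gene was called with any member with 5 principal components, nor in the trees up to the median Ash number.

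Of the 7 other membrane transporters, 7 rose with Fe_g22928.1, against 33.8% of all genes, at a median r of 0.241 beside 0.118 over all genes tested. With Fe_g28062, 4 rose and 1 fell, against 33.5% and 18.3% of all genes (median r 0.2995). With Fe_g28064, 5 rose and 1 fell, against 34.8% and 17.5% (median r 0.337), and with Fe_g31540 4 rose and none fell, against 35.5% and 22.7% (median r 0.241). Fe_g38947, a membrane protein with a triose-phosphate translocator domain, had an r of 0.467 with Fe_g22928.1 and 0.438 with Fe_g28064. Fe_g25658, a calcium-type cation ATPase, had an r of 0.354 with Fe_g28064. The MATE efflux carrier Fe_g40685 fell with both Mem_trans genes (r −0.195 and −0.205) and rose with Fe_g22928.1 (r 0.218). After scaling 1 of the 7, Fe_g38947, rose with Fe_g22928.1 (limma adjusted p = 0.0178), beside 3.49% of all genes. In the trees up to the median Ash number 2 of the 7 rose with Fe_g22928.1, Fe_g38947 and the cyclic nucleotide-gated channel Fe_g20031, against 15.2% of all genes, and none with the others. Fe_g25658 still rose and Fe_g40685 still fell with both Mem_trans genes with 5 principal components, where none of the 7 was called with the other members.

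Carriers such as the PIN and AUX1/LAX proteins reach the plasma membrane in vesicles. Of the 6 vesicle traffic genes, 6 rose with Fe_g28062, 6 with Fe_g28064, 5 with Fe_g22928.1 and 5 with Fe_g31540, and none fell, against 33.5%, 34.8%, 33.8% and 35.5% of all genes that rose. The median r was 0.337, 0.341, 0.336 and 0.376, beside 0.0616, 0.0699, 0.118 and 0.0609 over all genes. None rose with the Mem_trans genes in the trees up to the median Ash number, where 3 rose with Fe_g22928.1 and 1 with Fe_g31540, against 15.2% and 4.42% of all genes for these 2. Fe_g21866.2, a TM9/nonaspanin protein, had an r of 0.5002 with Fe_g28062, 0.501 with Fe_g28064, 0.424 with Fe_g22928.1 and 0.443 with Fe_g31540. Fe_g18776, an epsin, which shapes vesicles that carry clathrin coats, had an r of 0.546 with Fe_g31540 and 0.344 with Fe_g28062. In the trees above the median Ash number Fe_g21866.2 had an r of 0.686 with Fe_g28062, against 0.141 in the trees up to it. With Fe_g22928.1 its r was 0.387 in the trees above and 0.484 in the trees up to the median, both past the limma threshold (adjusted p = 0.00443 and 0.00053). Scaling left none of the 6 called with Fe_g22928.1 and 5 with each of the other 3, and with 5 principal components 1 was left, Fe_g18776 with Fe_g31540 (limma adjusted p = 0.0194).

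Of the 5 other hormone genes, 3 rose with Fe_g28062, 4 with Fe_g28064, 3 with Fe_g22928.1 and 2 with Fe_g31540, and 1 fell with each of Fe_g28062, Fe_g28064 and Fe_g31540. Of all genes 33.5%, 34.8%, 33.8% and 35.5% rose, so the 2 of 5 with Fe_g31540 lay near the background. With Fe_g28062, Fe_g28064 and Fe_g31540, 18.3%, 17.5% and 22.7% of all genes fell, so the 1 of 5 that fell also lay near it. After scaling 1 of the 5 rose with Fe_g22928.1, beside 3.49% of all genes. In the trees up to the median Ash number 1 rose with Fe_g22928.1, beside 15.2% of all genes, and none with the other 3. Of the 5, 2 (Fe_g44002 and Fe_g32756) rose with each Mem_trans gene with 5 principal components, none with Fe_g22928.1 and 1 with Fe_g31540. Of all genes 1.52%, 1.75% and 0.958% rose with Fe_g28062, Fe_g28064 and Fe_g31540 in that fit. The falling gene was Fe_g40731, an NCED2-like gene of abscisic acid synthesis, at an r of −0.218, −0.220 and −0.243. It is a low gene, at a mean of 0.930 TPM and at 1 TPM or more in 65 trees. Its calls with Fe_g28062 and Fe_g28064 were lost with the band as a term (limma adjusted p = 0.0951 and 0.136). With 5 principal components all 3 of its calls were lost (limma adjusted p = 0.210, 0.0674 and 0.123). The EIN3-like Fe_g37713, a transcription factor of ethylene signalling, rose with all 4, at an r of 0.473 with Fe_g31540, 0.370 with Fe_g28064, 0.322 with Fe_g28062 and 0.218 with Fe_g22928.1. Its call with Fe_g22928.1 was lost after scaling (r 0.0114, limma adjusted p = 0.964) and with the band as a term (r 0.127, 0.187). Fe_g32756, an ethylene-responsive factor, had an r of 0.387 with Fe_g22928.1. With Fe_g31540 the NCED2-like Fe_g40731 had an r of −0.467 in the trees above and 0.251 in the trees up to the median Ash number, the second of which missed the limma threshold (adjusted p = 0.116).

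**Figure D5:**
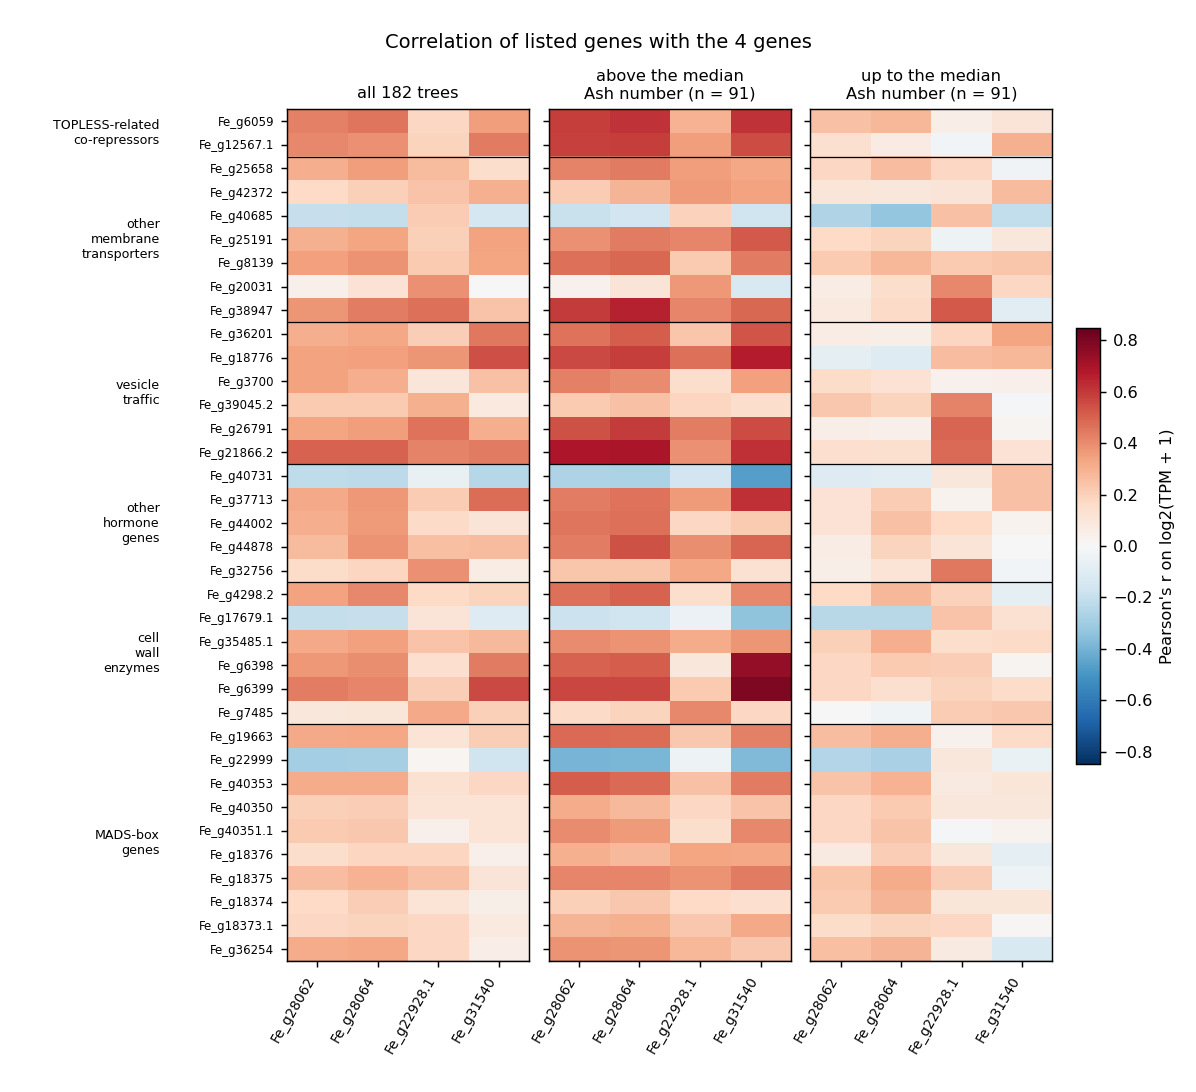
Pearson's r on log2(TPM + 1) of 36 listed genes (down) with each of the 4 genes (across), over all trees, over the trees above and over the trees up to the median Ash number. Red marks a positive and blue a negative r. The columns of Fe_g28062, Fe_g28064 and Fe_g31540 are deeper in colour above the median, as for Fe_g6399 and Fe_g31540 at 0.794 above and 0.156 up to it.

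Cell walls loosen when auxin makes cells expand. Of the 6 cell wall enzymes, 4 rose and 1 fell with Fe_g28062 and with Fe_g28064, 3 rose with Fe_g22928.1 and 5 rose with Fe_g31540. Of all genes 33.5%, 34.8%, 33.8% and 35.5% rose with Fe_g28062, Fe_g28064, Fe_g22928.1 and Fe_g31540. With the Mem_trans genes 18.3% and 17.5% of all genes fell, so the 1 of 6 that fell lay near the background. Adding 5 principal components left Fe_g7485, which rose with Fe_g31540, and Fe_g17679.1, which fell with each Mem_trans gene. In that fit 0.958% of all genes rose with Fe_g31540, and 1.67% and 2.24% fell with Fe_g28062 and Fe_g28064. None of the 6 was called with any member in the trees up to the median Ash number. After scaling 1 rose with Fe_g22928.1, beside 3.49% of all genes. Fe_g6398 and Fe_g6399, a pair of beta-L-arabinofuranosidases with adjacent identifiers, had an r of 0.444 and 0.560 with Fe_g31540 and of 0.371 and 0.434 with Fe_g28062. The XTH7-like Fe_g4298.2, which remodels xyloglucan, had an r of 0.405 with Fe_g28064. The pectate lyase Fe_g17679.1 fell with Fe_g28062 and Fe_g28064 (r −0.202 and −0.198). It was called with neither in the trees above the median Ash number (limma adjusted p = 0.120 and 0.158). Both calls were also lost with the band as a term (0.0696 and 0.165). The other pectate lyase, Fe_g35485.1, rose with all 4 members (r from 0.241 with Fe_g22928.1 to 0.348 with Fe_g28064). Its call with Fe_g22928.1 was lost after scaling (r 0.0243, limma adjusted p = 0.914) and with the band as a term (r 0.173, 0.0656). In the trees above the median Ash number Fe_g6399 had an r of 0.794 with Fe_g31540, against 0.156 in the trees up to it (limma adjusted p = 1.50e-16 and 0.346).

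MADS-box genes, which control flowering and dormancy, were followed for 10 of the 11 listed, since the trees fell into separate clusters for Fe_g18379 and no pooled r was computed for it. With Fe_g28062, 8 rose and 1 fell, and with Fe_g28064 9 rose and 1 fell, against 33.5% and 34.8% of all genes that rose and 18.3% and 17.5% that fell, at a median r of 0.213 and 0.220. No MADS-box gene was called with any of the 4 members in the trees up to the median Ash number. The SOC1-like Fe_g19663 had an r of 0.324 with Fe_g28062 and 0.329 with Fe_g28064, and the SVP-like Fe_g22999 fell with both (r −0.287 and −0.283). With 5 principal components, 7 rose and 1 fell with Fe_g28062, and 8 rose and 1 fell with Fe_g28064, beside 1.52% and 1.67%, and 1.75% and 2.24%, of all genes. With Fe_g22928.1, 4 rose over all trees, near the 33.8% of all genes, and none with 5 principal components. With Fe_g31540, 2 rose and 1 fell over all trees, below the 35.5% of all genes that rose and the 22.7% that fell, and none was called with 5 principal components, while 7 rose and 1 fell with the band of the Ash numbers as a term, and 8 rose and 1 fell in the trees above the median, beside 31.7% and 24.7%, and 34.9% and 24.5%, of all genes. Reads of similar MADS-box genes may have been divided among them, which leaves their separate values uncertain.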

How the data were processed

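Leaf RNA of 182 trees, 1 library each, was sequenced for an earlier study. The authors trimmed the reads with Trimmomatic, estimated transcript abundance with Salmon 0.8 against predicted coding sequences of their long-read genome and imported the estimates with tximport. The deposited values are TPM, per coding length, which the authors brought to a total of 1000000 in each tree, so a few abundant genes can lower all others and depth is unknown.

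All trees formed 1 group, and p-values treat them as independent. The filter kept genes that reached 1 TPM in 19 or more trees. Co-expression was fitted by limma 3.58.1 under R 4.3.3, with an intensity trend in eBayes, to log2(TPM + 1), against the standardized member, with Benjamini-Hochberg adjustment over all genes tested. Changes of low genes are understated on that scale. Permutation tests were two-sided and run with numpy 2.4.6 and scipy 1.17.1. Trees counted as separate clusters where the density of log2(TPM + 1) between 2 peaks was under 0.5 of the lower one and each side held 18 trees or more. The limma fit was also run on simulated data in which each gene was shuffled over trees on its own. Shuffling removes the correlation among genes, so that run gives no error rate for the calls reported here.

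Alternatives were a pseudocount of 0.1, no filter, median-of-ratios scaling, ranks, 5 principal components as covariates, and trees above or up to the median Ash number. The fits on either side of that number, the tests of differences between the sides, and the 4 equal bands of Ash numbers were added after the data were seen. The members and lists were chosen with earlier results of these data known. Named genes were the members, the 3 highest and 3 lowest r per member, identifiers within 3 of a member, up to 3 called genes of each list per member, and the 2 genes per direction whose r differed most between the Mem_trans genes. A few listed genes were named beyond this rule, after their values were seen. Damage scores, coding sequences and genome positions were not used here.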

Additional observations from a re-analysis of the deposited data

Results flagged for a closer look

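The correlation of 3 pairs of genes differed between the trees above and up to the median Ash number, by a permutation test chosen after the data were seen. For Fe_g28062 and Fe_g31540, rho was 0.614 in the trees above and 0.169 in the trees up to the median, a difference of 0.445, and r differed by 0.431 (permutation adjusted p = 0.005 and 0.009). For Fe_g28064 and Fe_g31540, rho was 0.598 in the trees above and 0.133 in the trees up to the median, a difference of 0.465, and r differed by 0.423 (permutation adjusted p = 0.005 and 0.00567). For Fe_g28062 and Fe_g22928.1, rho was 0.396 in the trees above and 0.0576 in the trees up to the median, a difference of 0.338, and r differed by 0.429 (permutation adjusted p = 0.0325 and 0.022). The members of the Mem_trans pair share their course, so the differences for Fe_g28062 and for Fe_g28064 are not separate evidence. What sets the trees apart by number was not tested. The permutation test does not separate relations within bands from level differences between bands.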

How the results depend on the processing

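The order of the 4 levels, the spread of the log2 ratio of the Mem_trans genes and their r held under the alternatives run for each. The fit with both Mem_trans genes called no gene under any of its 4 settings. Its lowest limma adjusted p was 0.05002, for Fe_g28064 beside Fe_g28062 with a pseudocount of 0.1. No pairing of trees between groups was possible because the trees form 1 group with no shared replicate numbers. In the trees up to the median Ash number, rho of the 5 tested pairs fell below the threshold, at 0.0576 and 0.169 for Fe_g28062 with Fe_g22928.1 and Fe_g31540, 0.137 and 0.133 for Fe_g28064 with the same genes, and 0.0185 for Fe_g22928.1 with Fe_g31540. The r of these pairs was −0.0120, 0.125, 0.105, 0.109 and −0.00471, the first and last with the sign turned. With 5 principal components, removed on log2(TPM + 1), rho was 0.0414, 0.127, 0.0205, 0.122 and 0.0968, and r was 0.0656, 0.153, 0.0247 and 0.173 for the pairs with a Mem_trans gene, all below the threshold. With the band of the Ash numbers as a term, the rho of 0.155 and r of 0.137 for Fe_g28062 and Fe_g22928.1, the r of 0.158 for Fe_g28064 and Fe_g22928.1 and the rho of 0.0790 for Fe_g22928.1 and Fe_g31540 fell below it. Scaling did so for r of Fe_g28062 and Fe_g22928.1 (0.147) and rho of Fe_g22928.1 and Fe_g31540 (0.117). The r of Fe_g22928.1 and Fe_g31540 passed on log2(TPM + 1) (0.175) and in the trees above the median (0.209). The cause of these changes was not tested.

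Counts of rising and falling genes moved by over 1.5 times in these cases. With 5 principal components they were 472 and 518 for Fe_g28062, 541 and 693 for Fe_g28064, 0 and 0 for Fe_g22928.1 (2512 at an unadjusted limma p under 0.05), and 297 and 526 for Fe_g31540. In the trees up to the median Ash number they were 1 and 0 for Fe_g28062 and for Fe_g28064, 4725 and 343 for Fe_g22928.1, and 1370 and 384 for Fe_g31540, with fewer trees in the fit. In the trees above the median they were 5821 and 346 for Fe_g22928.1, and with ranks 6451 and 402. After scaling, 8980 genes fell with Fe_g28062, 8945 fell with Fe_g28064 and 1081 rose with Fe_g22928.1, beside 9691 and 9846 that rose with the Mem_trans genes.

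Some named genes turned sign, none of them with a call in the alternative. With 5 principal components r was 0.121 for Fe_g28060, −0.0919 for Fe_g28063, −0.101 for Fe_g18776 and −0.00878 for Fe_g44878 with Fe_g28062. With Fe_g28064 it was −0.100 for Fe_g28063, −0.0636 for Fe_g18776 and −0.0421 for Fe_g26791. With Fe_g22928.1 it was 0.0227 for Fe_g17976, −0.107 for Fe_g6059, −0.159 for Fe_g12567.1, −0.0447 for Fe_g37713, −0.0868 for Fe_g44878 and −0.0300 for Fe_g35485.1. With Fe_g31540 it was −0.0447 for Fe_g31538, −0.190 for Fe_g12567.1 and −0.0187 for Fe_g21866.2. In the trees up to the median Ash number r was −0.0510 for Fe_g28063 and −0.0744 for Fe_g18776 with Fe_g28062, −0.0184 for Fe_g28067 and −0.107 for Fe_g18776 with Fe_g28064, −0.0265 for Fe_g12567.1 with Fe_g22928.1, and −0.0227 for Fe_g31542 and 0.251 for Fe_g40731 with Fe_g31540. After scaling r of Fe_g12567.1 with Fe_g22928.1 was −0.0595. Among the relations of named genes with a member, 64 lost their call at an unchanged sign with 5 principal components, 75 in the trees up to the median, 17 after scaling and 13 with the band as a term. Depth per tree is unknown, which limits Fe_g31540 most, at a mean of 1.39 TPM.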
